A study of Mus musculus with 9 samples.

Results

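Axon guidance genes encode secreted or membrane-bound cues and the receptors that read them. The genes described here are 46 members of 4 such systems in mouse: 6 Slit and Robo genes, 8 netrins and netrin receptors, 17 semaphorins, neuropilins and plexins, and 15 ephrins and Eph receptors. They were chosen by symbol, as 20 ligands and 26 receptors, and each matched 1 of the 23277 named rows in the authors' deposited full table. The tissue was the posterior second heart field (pSHF), the mesoderm behind the heart tube that feeds the atria and the atrial septum, dissected from embryos of mixed strain background at E10.5. There were 5 libraries of genotype Shh KO and 4 of genotype Shh WT, where Shh encodes the secreted ligand Sonic hedgehog. The labels name no Cre driver and do not say which part of Shh was removed, nor whether a library held 1 embryo or several, so any p reflects the spread among these libraries alone, which may be technical.

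As background, Slits bind Robo receptors and mostly repel growing axons and migrating cells. Netrins attract through Dcc and its relative neogenin and repel through the Unc5 family. Secreted semaphorins signal through a neuropilin with a plexin, many transmembrane semaphorins through plexins alone, and ephrins and Eph receptors signal between touching cells. All 4 systems also act outside the nervous system, among them semaphorin 3C with Plxnd1 in the heart's outflow tract and ephrin-B2 with Ephb4 between arteries and veins.

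In Shh KO tissue 2 guidance genes rose and the fold changes of most others were small. The 2 were Robo3, a receptor of commissural neurons, and Sema5b, a transmembrane semaphorin. In the authors' deposited tables, Robo3 stood at 1.49 FPKM in Shh KO, against 0.0683 FPKM in Shh WT. Sema5b stood at 4.11 FPKM in Shh KO, against 1.66 FPKM in Shh WT, in the authors' deposited table. FPKM counts fragments scaled to transcript length and library size, and each genotype has 1 pooled value, so no replicate spread could be computed. Called genes are those whose deposited Cuffdiff q lies under 0.05, where Cuffdiff is the authors' tool for estimating and comparing expression. Of the 42 members that Cuffdiff tested, 2 (4.76%) were called higher and 0 lower, beside 1.56% and 0.383% of the 13048 named tested rows. At an unadjusted Cuffdiff p under 0.05 there were 5 of the 42, beside 7.51% of all those rows. With 42 genes, such counts are too small to set the members apart from the background. At a Cuffdiff q under 0.01 there were 0 members higher (background 1.01%), and at a q under 0.10 there were 2 (background 2.16%). The median log2 fold change of the 42 was 0.00013, beside 0.02 for all named tested rows, with 21 members above 0 and 21 below, where 54.9% of all those rows were above 0.

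**Figure D1:**
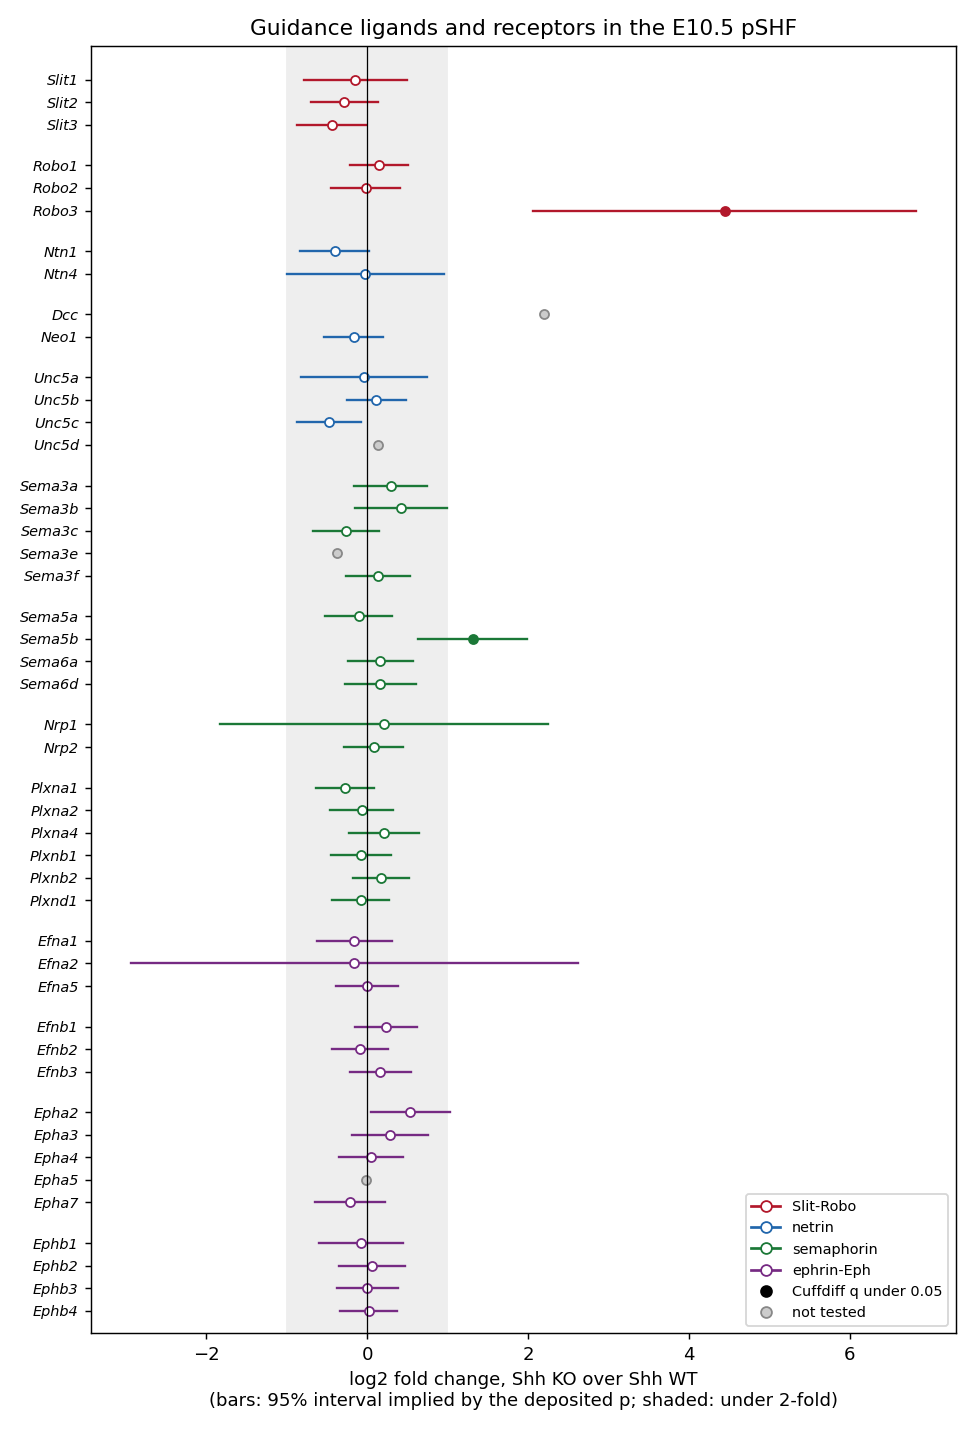
Log2 fold change of each of the 46 guidance genes, Shh KO over Shh WT (x axis), grouped by family down the page and coloured by system. Bars are 95% intervals implied by the deposited p-values, filled points are called at a q under 0.05, grey points were not tested, and the shaded band marks changes under 2-fold. Robo3 at 4.45 and Sema5b at 1.31 are the only filled points, while 37 intervals lie wholly inside the band.

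The deposited tables give no error for a fold change, so an approximate standard error was taken from each fold change and its deposited p, as the error that gives that p under a normal curve. For tested members its median was 0.21 on the log2 scale. The resulting 95% interval lay inside 2-fold in both directions for 37 of the 42 tested members (88.1%), beside 79.6% of all named tested rows. For 19 members (45.2%, beside 41.6%) it lay inside 1.5-fold. The members whose interval was not wholly inside 2-fold were Robo3, Sema5b, Epha2 and the wide estimates of Nrp1 and Efna2. Of these, only Robo3 and Sema5b had a fold change beyond 2-fold, while Epha2 read 0.54 with an upper end of 1.03. An absolute log2 fold change under 0.5 was seen for 39 of the 42 (92.9%), beside 88.5% of all named tested rows.

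**Figure D2:**
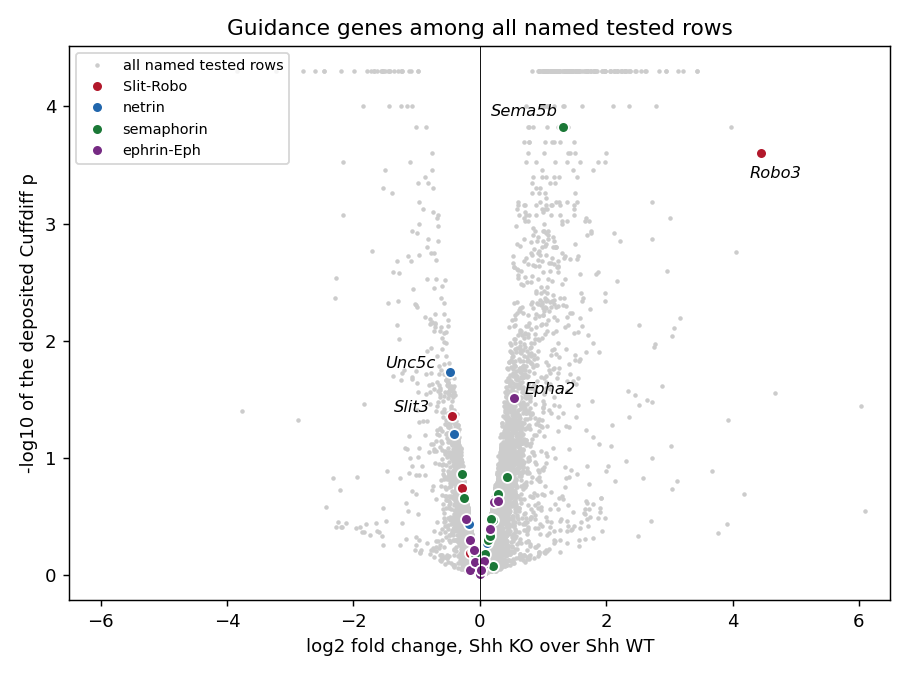
Log2 fold change, Shh KO over Shh WT (x axis), against −log10 of the deposited Cuffdiff p (y axis) for all 13048 named tested rows (grey) and the 42 tested guidance genes (coloured by system). The 5 labelled genes have an unadjusted p under 0.05. The row of points along the top sits at the smallest p in the table, 5e-05.

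Robo3 lies on chromosome 9 at 37416045 to 37433175 (mm10). Its product is a divergent member of the Robo family that lets commissural axons cross the midline in mouse. In the authors' deposited table its log2 fold change was 4.45 (approximate SE 1.21, 95% interval 2.07 to 6.83, Cuffdiff p = 0.00025, q = 0.0207). Among the 203 named rows called higher it ranked 1st by fold change. The Shh WT level was close to 0, and the ratio depends on it: adding 1 FPKM to each value brings it to 1.22. No named row overlapped Robo3.

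Sema5b lies on chromosome 16 at 35541362 to 35664258 (mm10) and encodes a transmembrane semaphorin with thrombospondin repeats. In the authors' deposited table its log2 fold change was 1.31 (approximate SE 0.35, 95% interval 0.63 to 1.99, Cuffdiff p = 0.00015, q = 0.0137), which is 2.48-fold. It ranked 111th by fold change among the 203 rows called higher. Adding 1 FPKM to each value brings it to 0.94. Its nearest relative among the members, Sema5a, read −0.10 in the authors' deposited table and was not called.

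The promoters of the 2 called genes are printed to show the sequence at the start of each, from RefSeq on GRCm38, 250 bases before to 50 bases after the start. That of Robo3 is chr9:37433126-37433425 on the minus strand and that of Sema5b is chr16:35541112-35541411 on the plus strand. Capitals mark matches to the E-box CANNTG, a core that neuronal basic helix-loop-helix factors can bind, where N is any base, searched on both strands.
Robo3: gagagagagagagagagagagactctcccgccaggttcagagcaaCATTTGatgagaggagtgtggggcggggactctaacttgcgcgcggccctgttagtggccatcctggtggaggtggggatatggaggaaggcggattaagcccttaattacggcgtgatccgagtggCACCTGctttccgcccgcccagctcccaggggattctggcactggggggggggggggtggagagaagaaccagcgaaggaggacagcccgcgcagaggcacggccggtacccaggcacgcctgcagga
Sema5b: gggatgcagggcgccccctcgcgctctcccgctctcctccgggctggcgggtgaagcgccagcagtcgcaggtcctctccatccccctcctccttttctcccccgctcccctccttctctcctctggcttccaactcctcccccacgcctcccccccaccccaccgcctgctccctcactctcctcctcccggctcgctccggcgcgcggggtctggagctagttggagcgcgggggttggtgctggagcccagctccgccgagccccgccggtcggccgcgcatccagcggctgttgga
The Robo3 window held 2 E-box matches, starting 205 and 78 bases before the gene start, and the Sema5b window held 0. The Gli core GACCACCCA, searched on both strands, matched neither window. RefSeq promoters were found for 36 of the 46 members, 42 windows in all. The E-box matched 16 of these 42 (38.1%), beside 72.3% of 32851 promoter windows of the same length, and the Gli core matched 0 of 42, beside 0.253%. Member windows were rich in G and C, with a median GC content of 65.7% and 23 CpG dinucleotides, beside 52.7% and 7 over all windows. The Robo3 window had 63.3% GC and 17 CpG dinucleotides, and that of Sema5b 73.0% and 27. A match describes letters only. The rows were also long: the median span of the 46 was 147 kb, beside 26.2 kb for all named tested rows, and 37 of the 46 were longer than that. The 2 sets differ, since the 46 include the 4 untested members and the background does not. Those 4 were long: Dcc (1097 kb), Unc5d (573 kb), Epha5 (363 kb) and Sema3e (231 kb). The 37 include the Efna2 row, whose 672 kb is far longer than the RefSeq gene.

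Among the Slit ligands none was called and all 3 fold changes were below 0 in the authors' deposited table. Slit3 read −0.44 (95% interval −0.87 to −0.01, Cuffdiff p = 0.0438, q = 0.703), Slit2 −0.28 (−0.70 to 0.13) and Slit1 −0.15 (−0.79 to 0.49) (log2) in the authors' deposited table. The intervals of Slit1 and Slit2 include 0 and that of Slit3 stops just short of it, with a median of −0.28 over the 3. Slit2 and Slit3 are hosts of the microRNA genes Mir218-1 and Mir218-2, whose own rows were listed at a fold change of 0 and were not tested. The receptors Robo1 and Robo2, which bind Slits directly, stood at 0.15 (−0.22 to 0.51) and −0.02 (−0.45 to 0.41) in the authors' deposited table. Both intervals lie inside 1.5-fold and neither overlaps that of Robo3, though the difference between the receptors was not tested.

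Netrins and their receptors gave 0 calls among 6 tested, with 1 at an unadjusted Cuffdiff p under 0.05 (background 7.51%). Ntn1, the classic attractant of commissural axons, read −0.40 in the authors' deposited table (95% interval −0.83 to 0.02, Cuffdiff p = 0.0631, q = 0.822). Ntn4, a netrin of basement membranes, read −0.02 with a wider interval of −0.99 to 0.95 in the authors' deposited table. Of the receptors, Unc5c had the smallest p among uncalled members, at −0.47 in the authors' deposited table (−0.87 to −0.08, Cuffdiff p = 0.0184, q = 0.438). Unc5b, prominent in blood vessels, read 0.12 and Unc5a −0.04, and Neo1, which also binds repulsive guidance molecules, read −0.17 in the authors' deposited table. The Unc5a row overlaps that of Hk3 and ends at 55021403 on chromosome 13, beyond the RefSeq end at 55006018. Its value may therefore not be that of Unc5a alone. Unc5d (0.14) was not tested. Dcc, the main attractive netrin receptor of axons, read 2.20 in the authors' deposited table but carries a p of 1, the mark of a row that Cuffdiff did not test. Its direction therefore has no test behind it. Of 6 tested netrin-system genes, 1 was above 0 and 5 below, with a median of −0.11.

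Of 8 tested semaphorin ligands 6 were above 0, beside 54.9% of all named tested rows, and their median was 0.17. Sema3b (0.43, 95% interval −0.15 to 1.00) and Sema3a (0.29, −0.16 to 0.75) were the highest secreted members in the authors' deposited table, with no call. Sema3f, a ligand of Nrp2, read 0.14 in the authors' deposited table. Sema3c, needed for septation of the outflow tract in mouse, read −0.26 (−0.67 to 0.15), with no call, in the authors' deposited table. Sema3e, which binds Plxnd1 without a neuropilin, read −0.37 and was not tested. Sema6a and Sema6d, transmembrane ligands of A-type plexins, stood at 0.17 and 0.16 in the authors' deposited table.

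Semaphorin receptors gave 0 calls among 8 tested (background 1.56% higher and 0.383% lower) and 0 at an unadjusted Cuffdiff p under 0.05 (background 7.51%). The plexins had a median approximate SE of 0.19, beside 0.24 for all named tested rows. The 6 plexins ranged from −0.28 (Plxna1) to 0.21 (Plxna4) in the authors' deposited table, with a median of −0.07, and all 6 intervals lay inside 2-fold. Plxnd1, the receptor of endothelial cells and cardiac crest, read −0.08 (95% interval −0.44 to 0.28), and Plxnb2 read 0.17, Plxna2 −0.07 and Plxnb1 −0.08 in the authors' deposited table. Nrp2 read 0.08 (−0.28 to 0.45) in the authors' deposited table. The Nrp1 row also carries Mir1903, and its 0.21 has an interval of −1.82 to 2.25 in the authors' deposited table, too wide to resolve a change. Across the system, Sema5b was the 1 call among 16 tested genes, beside 1.56% of all named tested rows called higher.

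Ephrins and Eph receptors gave 0 calls among 14 tested, with 1 at an unadjusted Cuffdiff p under 0.05 (background 7.51%). That gene was Epha2, an Eph receptor of epithelia, at 0.54 in the authors' deposited table (95% interval 0.05 to 1.03, Cuffdiff p = 0.0306, q = 0.578). Epha3, known in mouse from the endocardial cushions, read 0.29 (−0.18 to 0.76), Epha4 0.05 and Epha7 −0.21 in the authors' deposited table, while Epha5 (−0.01) was not tested. All 4 EphB receptors lay between −0.08 (Ephb1) and 0.06 (Ephb2), with Ephb3 at 0.00 and Ephb4, a marker of veins, at 0.02 in the authors' deposited table. Its partner Efnb2, a marker of arteries, read −0.09 (−0.44 to 0.26), and Efnb1 read 0.23 and Efnb3 0.16 in the authors' deposited table. Of the ephrin-A ligands, Efna5 stood at −0.00 (−0.39 to 0.38) and Efna1 at −0.16 in the authors' deposited table. Efna2 read −0.16 with an interval of −2.94 to 2.62, too wide to resolve a change, in the authors' deposited table. Its row spans 672 kb and overlaps 46 other named rows, while the RefSeq gene covers only 80179482 to 80190010 on chromosome 10. The value may therefore not be that of Efna2 alone.

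Further genes of these systems were taken from lists of 34 other guidance genes and 25 intracellular effectors. The 28 tested other guidance genes had a median of 0.12, and 6 had an unadjusted Cuffdiff p under 0.05, beside 7.51% of all named tested rows. Of the 28, 0 were called higher (background 1.56%) and 1 lower (background 0.383%). The call was Ntng1, which encodes the membrane-anchored netrin-G1, at 0.353 FPKM in Shh KO against 1.21 FPKM in Shh WT in the authors' deposited table (log2 fold change −1.78, Cuffdiff q = 0.00554). Without a call, Draxin, a secreted protein that binds Dcc and netrin, read 0.57 (Cuffdiff p = 0.00735, q = 0.234) in the authors' deposited table. Efna3 (0.74), Sema4a (0.73), Flrt2 (0.38), a ligand of Unc5 receptors, and Epha8 (−0.85) had an unadjusted Cuffdiff p under 0.05 and no call, as read from the authors' deposited table. Of 24 tested effector rows, 1 was called higher (background 1.56%) and 0 lower (background 0.383%), with a median of −0.05. It was Mical2, an enzyme that oxidises actin, at 9.66 FPKM in Shh KO against 5.70 FPKM in Shh WT in the authors' deposited table (0.76, Cuffdiff q = 0.0207). Srgap3 (0.56), Fes (0.58) and Dpysl3 (−0.39) had an unadjusted Cuffdiff p under 0.05 and no call, as read from the authors' deposited table.

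**Figure D3:**
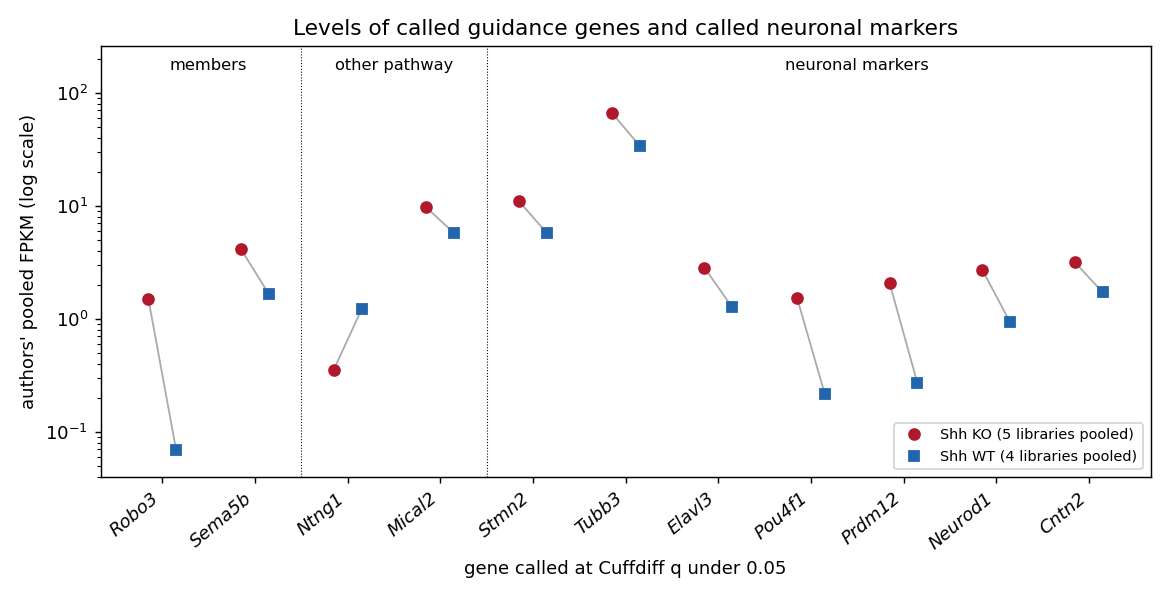
The authors' pooled FPKM (y axis, log scale) of the called guidance genes, the 2 called genes of the wider pathway and the called neuronal markers, with Shh KO as circles left of Shh WT squares, 1 value per genotype and no error. Robo3 has the steepest pair, 1.49 in Shh KO against 0.0683 in Shh WT. Among the genes drawn, Ntng1 alone slopes the other way. The neuronal markers are the called genes of the pan-neuronal, sensory neuron, and motor and commissural neuron lists, where no gene was called lower. Nkx6-1 and Ret, called lower on other lists, are not drawn.

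The targeted gene read 5.44 FPKM in Shh KO, against 15.7 FPKM in Shh WT, in the authors' deposited table. Depth per library is unknown, since no library values were used. All 7 markers of pSHF mesoderm were tested by Cuffdiff, with a median log2 fold change of −0.39. Of these, 2 (Osr1 and Foxf1) were called lower, beside 0.383% of all named tested rows. Without a call, Tbx5 (−0.44) and Isl1 (−0.39) were below 0. The other 3, Gata4 (0.35), Nr2f2 (0.06) and Wnt2 (0.04), were above 0, also without a call.

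Several neuronal markers were called higher beside the 2 guidance genes. Nkx6-1 of the neural tube list and Ret of the neural crest list were called lower. Shh, on the floor plate list, was also called lower, but it is the targeted gene. Of all named tested rows 1.56% were called higher and 0.383% lower. Of 9 tested pan-neuronal markers 3 were called higher (Tubb3, Elavl3 and Stmn2), all 9 were above 0, and the median log2 fold change was 0.49. These 3 summed to 80.4 FPKM in Shh KO, against 41.1 FPKM in Shh WT, in the authors' deposited table. Of 9 tested sensory neuron markers 3 were called higher (Pou4f1, Prdm12 and Neurod1), 8 were above 0, and the median was 0.55. The 3 called genes summed to 6.30 FPKM in Shh KO, against 1.41 FPKM in Shh WT, in the authors' deposited table. Both sums cover only genes called higher, so their direction was fixed by that choice. Cntn2, an adhesion protein of commissural and other axons, was called higher at 3.15 FPKM in Shh KO against 1.71 FPKM in Shh WT in the authors' deposited table, 1 of 5 tested motor and commissural neuron markers (median −0.30). Of the others Lhx2 read 0.72, Mnx1 −0.30, Lhx9 −0.49 and Slc18a3 −0.58 in the authors' deposited table, with no call. Among 4 tested neural tube progenitor markers (median 0.40), Nkx6-1 was called lower, at 5.22 FPKM in Shh KO against 16.6 FPKM in Shh WT in the authors' deposited table. Sox3 (1.59), Pax6 (0.89) and Sox2 (−0.10) had no call there. The 3 tested floor plate markers had a median of −0.56, which counts Shh, the targeted gene. Foxa2 (−0.56) and Spon1 (0.14) had no call. None of these called markers is at 0 in either genotype, and the uncalled ones have no FPKM there. Neural crest markers had a median below 0 (−0.36, 1 of 9 tested rows called lower). None of 8 endothelial markers was called (median 0.08, 0 at an unadjusted Cuffdiff p under 0.05, background 7.51%). Markers of some other tissues were called higher too, 5 of 5 for cardiomyocytes (median 1.19), 4 of 4 for hepatoblasts (1.92), and 3 of 4 each for macrophages (1.31) and epicardium (0.84). Foregut endoderm (0 of 4 called, median −0.14) and erythroid markers (0 of 4, −0.07) were not. Acta2 was the 1 call among 4 tested smooth muscle rows (median 0.73). That median counts both Cnn1 rows (0.76 and 0.77), which each overlap 15 other named rows and have approximate SEs of 0.90 and 2.07. Of 2 tested limb mesenchyme markers Pitx1 was called higher (1.68) and Tbx4 read −0.54 without a call. The part of these markers in the Robo3 and Sema5b values was not tested, and in pooled tissue more cells of a type cannot be told apart from more RNA per cell.

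**Figure D4:**
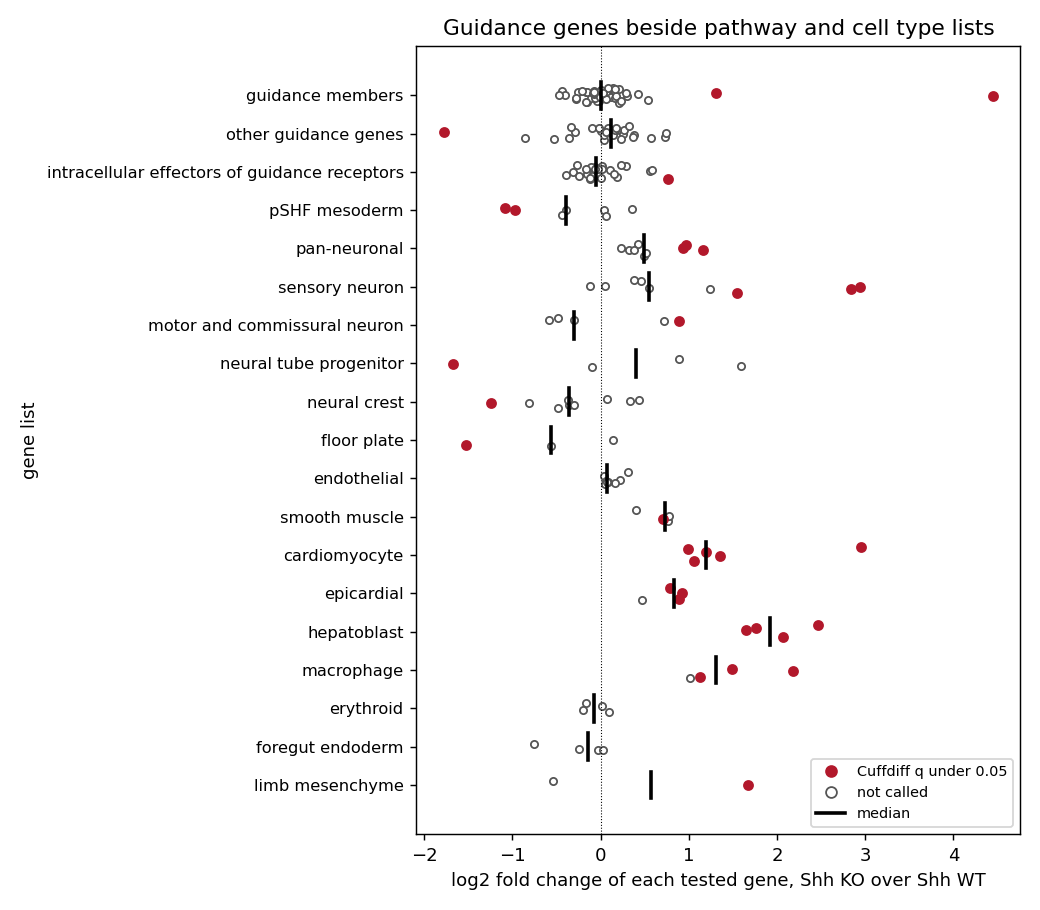
Log2 fold change of every tested gene, Shh KO over Shh WT (x axis), in the guidance genes, the lists of the wider pathway and the cell type lists (y axis), with called genes filled and a bar at each median. The guidance genes centre on 0 with Sema5b and Robo3 to the right, while the pan-neuronal (0.49) and sensory neuron (0.55) medians lie above 0. Medians of some non-neuronal lists lie higher still, among them hepatoblast (1.92), macrophage (1.31), cardiomyocyte (1.19) and epicardial (0.84). Among the lists with a median below 0 are motor and commissural neuron (−0.30), neural crest (−0.36) and floor plate (−0.56).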

How the data were processed

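Polyadenylated RNA of 5 Shh KO and 4 Shh WT libraries was sequenced as stranded 50 bp single-end reads, per the labels' protocols. The authors used TopHat2 2.0.10 and Cuffdiff 2.1.1, per the submitters' processing notes, with other settings not given in the sources used here. Deposited by the authors were a full table of 27198 rows with log2 fold changes, a Cuffdiff score, p-values and q-values, and a table of 253 genes with 1 pooled FPKM per genotype, their ratio (fold change) and its log2. Depth per library is unknown.

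A p under 1 marked a tested row. Adjustment of these 16944 rows by Benjamini-Hochberg returned the deposited q within 5.94e-05. Fold changes were read as Shh KO over Shh WT, since for 251 genes matched between the tables they equal the log2 FPKM ratio within 1.07e-05. The notes name the build mm9, but 98.7% of 21107 symbols overlapped their GRCm38 RefSeq gene, so positions are given as mm10, with 1 added to starts.

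The approximate standard error is the fold change divided by the normal score of its p. Its calculation was checked on simulated data whose p came from the same normal curve. That check cannot show how well the intervals hold for Cuffdiff p-values, which stop at 5e-05. Cell type and pathway lists, and the members, were chosen with earlier results of these data known. Every member was named, with p and q where the unadjusted p was under 0.05. The other members' intervals were added after their values were seen, and Ntn1 among them was also given its p and q. A sensory neuron marker is not reported here and was left out of its list's counts. Cells holding a spreadsheet error were treated as missing. Python 3.11.15, numpy 2.4.6, pandas 2.3.3, scipy 1.17.1 and matplotlib 3.10.9 were used.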

Additional observations from a re-analysis of the deposited data

How the results depend on the processing

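The 2 guidance genes called higher stayed 2 with a q under 0.10, with adjustment over named rows only and without rows that overlap others or hold several symbols. They fell to 0 at a q under 0.01 and 0 with Benjamini-Yekutieli adjustment, under which the smallest q of the whole table is 0.0571. Robo3 then had 0.213 and Sema5b 0.142. Calls of guidance genes lower were 0 under each of these 5 alternatives. Among other guidance genes and effectors, 1 was called higher, against 0 at a q under 0.01 and 0 with Benjamini-Yekutieli, and 1 was called lower, against 0 with Benjamini-Yekutieli. The median of the guidance genes lay between −0.02 and 0.02 under the 3 alternatives tried. Adding 1 FPKM moved Robo3 to 1.22 and Sema5b to 0.94 on the log2 scale, and adding 0.1 FPKM gave 3.24 and 1.26. Family medians moved most for Robo receptors without Robo2 (2.30), whose row overlaps Mir691, and for Dcc with neogenin when the untested Dcc row counted (1.01). That of Unc5 receptors was 0.04 with the untested Unc5d, and that of EphB receptors −0.01 relative to the median of all rows.

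No paired analysis was possible because the tables hold no value per library. For the same reason, leaving out a library and a filter on low values were not run. Pooled values near 0, such as Robo3 in Shh WT, limit the precision of a ratio.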

Other observations

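The tested genes next to Robo3 and Sema5b did not share their calls. Robo4, an endothelial relative of Robo3, ends 2.01 kb before it and had a log2 value of 0.24 by the authors' deposited table (Cuffdiff p = 0.349, q = 1.00). On the other side of Robo3, Msantd2 (0.14) and Esam (0.15) were not called, and Vsig2, 106 kb away, read 1.09 (Cuffdiff p = 0.0177, q = 0.428) in the authors' deposited table. Beside Sema5b, Pdia5 (0.30) and Dirc2 (0.16), 50.5 and 30.6 kb away, had no call in the authors' deposited table. Among the members, Sema3b and Sema3f lie 72.3 kb apart on chromosome 9 and read 0.43 and 0.14, and Robo1 and Robo2, 846 kb apart on chromosome 16, read 0.15 and −0.02 in the authors' deposited table. These neighbours were chosen by position after their values were seen, and not every near row is named above. Hepacam, 29.5 kb from Robo3, and 1600019K03Rik, 31.9 kb from Sema5b, were not tested.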
